A study of Mus musculus with 4 samples.

Results

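Fetal liver in 2 samples of mice labelled wild type was profiled by RNA sequencing, and the transcript levels and splice junctions of these 2 libraries are described here. They are 2 of the 4 libraries of a study of hnRNP L, a nuclear protein that binds RNA and regulates exon choice. The 2 libraries were chosen by their genotype label alone, and the knockout libraries were not used. For the series as a whole, the labels name C57BL/6, LckCre transgenic, ROSA26 tdTomato and EGFP reporter and CD45.1 mice. Which of these alleles the wild-type fetuses carried, their embryonic day, their litters and any sorting of the cells were not stated. The labels call the 2 libraries separate samples but do not say that they came from separate litters or preparations, so the spread between them may be partly technical.

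In the mid-gestation embryo most blood forms in the liver. Red cell precursors, matured on macrophages in erythroblastic islands, crowd among immature hepatocytes (hepatoblasts), sinusoidal endothelium and stellate cells. Hepatoblasts already secrete albumin and alpha-fetoprotein, while most enzymes of adult liver metabolism come on around birth. The labels describe RNA of fetal liver cells, so all of these cell types can contribute to 1 library. In such bulk RNA, fewer cells of a type and less RNA per cell cannot be told apart.

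The libraries held 70020061 and 111324295 mapped reads. Reads summed over the RefSeq rows used here, 1 transcript per gene for 22011 genes, came to 33739428 and 56895298. These sums equal 48.2% and 51.1% of the mapped reads, but overlapping rows can count the same reads. They are therefore not the share of mapped reads on transcripts. Shares of reads per gene or list below are shares of these sums. Levels are given as RPKM, reads per kilobase of transcript, scaled to the number of mapped reads, always in the order library 1, library 2. In both libraries 10384 genes (47.2%) reached an RPKM of 1, which is called detected below. Of these, 3655 reached 10, 272 reached 100 and 32 reached 1000 in both libraries, and 2962 genes had no read in either. The 10 rows with most reads took 13.5% and 11.3% of summed reads, and 671 and 744 genes held the first 50% of them. Among those 10 rows are the overlapping Hbb-b1 and Hbb-b2 rows, which can hold the same reads. Across the 10609 genes with a mean RPKM of at least 1, log2 levels correlated with r = 0.986 between libraries, a description across genes, which are not independent replicates. The common biological coefficient of variation estimated with edgeR over 14357 genes was 13.5%. The median gene was higher by 0.12 on the log2 scale in library 2, and this shift was 0.02 after TMM scaling of the counts. Xist was at 25.1 and 25.9 RPKM and the Y-linked genes Ddx3y, Eif2s3y, Kdm5d and Uty were at or below 0.153 RPKM in both libraries. The targeted gene of the series, Hnrnpl, was at 99.0 and 140.5 RPKM with 4622 and 9172 reads on its known junctions.

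Globin rows led the protein-coding transcripts. Beta-s, an adult beta-globin row (chr7:110975037-110976442, minus strand, in the files' coordinates, of a build not named in the files), stood at 20193 and 15555 RPKM, the highest level of any gene. Hbb-b2, the other adult beta-globin locus, stood at 14614 and 11946 RPKM, and the overlapping Hbb-b1 row of the same locus at 12733 and 10747 RPKM. By RPKM, adult beta-globin was lower in library 2 than in library 1 in all 3 rows. Reads on splice junctions ran the other way, with Beta-s at 2.94% and 3.31% of known-junction reads and Hbb-b2 at 2.93% and 3.31%. Alpha-globin, Hba-a1, was at 2221 and 2424 RPKM, and the Hba-a2 row held the same 86933 and 150859 reads, so the 2 rows are 1 measurement. Theta-like Hbq1b was at 28.9 and 28.5 RPKM and Hbq1a at 2.74 and 2.13 RPKM.

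Embryonic globins, the genes of the primitive red cells that come from the yolk sac, were a minority of globin reads per length. Hbb-y, the embryonic epsilon-like beta-globin, was at 2570 and 3041 RPKM and was the sixth highest of all rows of at least 300 bases. Hbb-bh1, which is expressed earliest in primitive cells, was at 240.1 and 213.3 RPKM, and Hbb-y was 10.7 and 14.3 times as high. Together they made up 7.47% and 10.6% of beta-like globin RPKM (9.03% ± 2.20, SD, n = 2), with the overlapping adult rows counted once. Hba-x, the embryonic zeta-like alpha-globin, was at 99.7 and 107.2 RPKM, which is 4.30% and 4.24% of alpha-like globin RPKM (4.27% ± 0.0423, SD, n = 2). By RPKM, the beta-like share differed between the libraries and the alpha-like share hardly did. The alpha-like share rests on the Hba-a1 row, whose RPKM is uncertain because its reads per junction were far above those of other genes, as given with the junction reads.

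**Figure D1:**
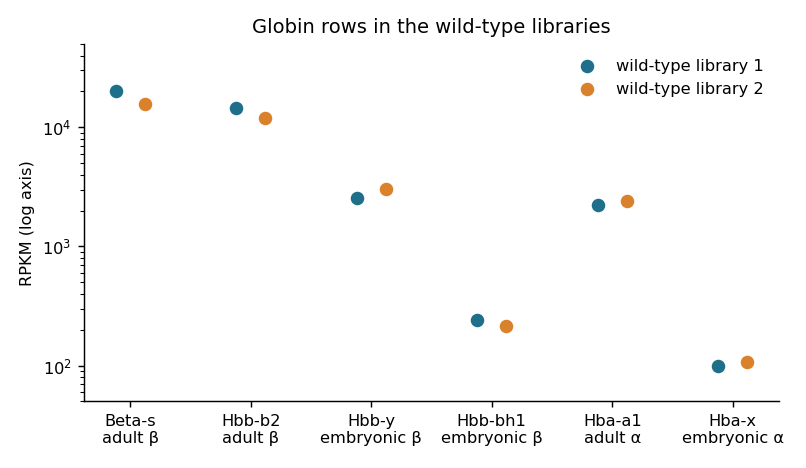
RPKM on a log axis of 6 globin rows (x axis, with the type of each) in wild-type library 1 (blue) and library 2 (orange); each point is 1 library. The adult beta rows Beta-s and Hbb-b2 lie highest, at 11946 RPKM or more, Hbb-y and Hba-a1 lie between 2221 and 3041, and Hbb-bh1 and Hba-x at or below 240.1.

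Reads on splice junctions gave other proportions of the globin chains. The 2 known junctions of Beta-s carried 123165 and 20048 reads in library 1 and 245790 and 39592 in library 2. The junctions of Hbb-b2 carried nearly the same numbers, 122751 and 19992 reads in library 1. At the first copy of Hba-a1 the junctions carried 89664 and 154962 reads in library 1 and 213589 and 220422 in library 2, and the second copy had 90355 and 155520 reads in library 1. The mean per junction was thus 122625 and 217173 reads for Hba-a1 against 71606.5 and 142691 for Beta-s, whereas by RPKM alpha-like globin was 0.0617 and 0.0823 of beta-like globin. Near-identical copies can share reads, and how such reads were assigned to junctions was not stated, so the chain balance cannot be read from these files. By the mean reads per known junction, set against both adult loci as in the RPKM share, the embryonic share of beta-like globin was 2.13% and 3.10%, again higher in library 2. Set against the adult locus with more reads alone it was 4.17% and 6.00%. The same measure put Hba-x at 0.141% and 0.0995% of alpha-like globin against 1 copy of Hba-a1, far below the 4.30% and 4.24% by RPKM. Against both copies it was 0.0705% and 0.0498%.

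The proximal promoters of Beta-s and Hbb-y are shown because the adult and embryonic beta-globin rows differ in level. They are the 120 bases before the RefSeq start on GRCm38.p6, written 5′ to 3′ on the gene's strand, with capitals for matches on either strand to the CCAAT box, the CACCC box, the TATA motif TATAAA, the GATA motif AGATAA and the hexamer GTTAAT. Beta-s is matched to RefSeq Hbb-bs at chr7:103827929-103828048 (minus strand) and Hbb-y lies at chr7:103853208-103853327 (minus strand).
Hbb-bs: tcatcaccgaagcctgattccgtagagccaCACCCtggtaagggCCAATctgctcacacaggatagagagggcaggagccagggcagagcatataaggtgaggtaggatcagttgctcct
Hbb-y: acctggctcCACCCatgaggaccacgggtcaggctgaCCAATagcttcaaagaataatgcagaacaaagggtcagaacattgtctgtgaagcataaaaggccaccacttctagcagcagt
Both stretches held 1 CACCC and 1 CCAAT match. CACCC is the core of the boxes bound by Klf1-like factors and CCAAT the core of the box bound by NF-Y. Among the 250-base windows before all 32851 RefSeq starts of 27025 genes, 52.0% held CACCC and 33.8% CCAAT. In the 70 windows of 50 erythroid genes (globin, membrane, factor and heme lists) these shares were 68.6% and 38.6%. Neither share was highest there, since the 34 windows of plasma protein genes held CACCC in 76.5% and CCAAT in 41.2%, and CACCC was in 63.2% of ribosomal protein windows and 64.1% of endothelial and stromal windows. AGATAA, a form of the GATA site, was in 15.7% of erythroid windows and 9.99% of all windows. These are matches of letters in a window and not binding sites.

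By RPKM, small RNAs filled most of the top of the table. Of the 30 highest rows, 16 were small nucleolar RNAs, 6 globins, 3 histones, 1 a microRNA hairpin (Mir715) and 4 others, namely Rmrp, Alb, Afp and Gas5. Snord100, a guide RNA for ribosomal RNA modification encoded within Rps12, was at 12176 and 14953 RPKM over a row of 68 bases. Snord34, within Rpl13a, was at 11486 and 13380 RPKM. Rmrp, the RNA of the RNase MRP ribonucleoprotein, was at 10773 and 11635 RPKM. Of 114 small nucleolar RNA rows with a median length of 78 bases, 107 lay inside a longer row on the same strand, so their reads can also come from the host transcript, and they took 1.72% and 1.90% of reads. Libraries were selected for fragments of 150 to 300 bp, per the labels, longer than most of these rows, so these levels are not compared with those of long mRNAs.

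Genes of red cell membrane and skeleton were all highly expressed. All 21 members of the list were detected, with a median of 108.1 and 100.3 RPKM. Slc4a1 (band 3), the anion exchanger that anchors the skeleton, led them with 1107 and 1256 RPKM from 352525 and 636294 reads. Cd24a, a surface glycoprotein of erythroblasts, followed with 744.4 and 756.8 RPKM. The Rh complex was represented by Rhd at 278.3 and 327.8 RPKM and Rhag at 185.2 and 192.5 RPKM. Epb4.1 (protein 4.1), the link between spectrin and actin, was at 127.6 and 137.8 RPKM. The lowest member still had a mean of 24.7 RPKM. Their log2 differences between the libraries (library 2 minus library 1) ran from -0.24 to 0.32.

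Heme and iron genes were at the same height. All 22 found members were detected, with medians of 111.3 and 112.3 RPKM. Car2, the carbonic anhydrase of red cells, was at 1100.5 and 1052 RPKM. Alas2, the erythroid form of the first enzyme of heme synthesis, was at 668.8 and 678.8 RPKM. The later enzymes Urod (382 and 410 RPKM), Fech (292 and 289) and Cpox (222 and 268) were all above 220 RPKM. Slc25a37 (mitoferrin), which carries iron into the mitochondrion, was at 469 and 452 RPKM, and the ferritin subunit Fth1 at 695 and 729 RPKM.

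All 17 erythroid factors and receptors were detected, with medians of 43.0 and 43.6 RPKM. Tfrc, the transferrin receptor that brings iron into the cell, led with 382 and 398 RPKM. Klf1, the activator of adult beta-globin, was at 242.9 and 229.3 RPKM, above Gata1 (97.7 and 117.7 RPKM) and Tal1 (97.1 and 106.6 RPKM). Reads per junction of Klf1 were low for its row, as given with the junction reads, so this order by RPKM is uncertain. Epor, the erythropoietin receptor, was at 93.1 and 96.4 RPKM. Gfi1b, a transcriptional repressor that acts in the red cell and platelet lineages, was at 19.3 and 27.8 RPKM. Zfpm1, the Gata1 partner, was at 47.2 and 43.6 RPKM.

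**Figure D2:**
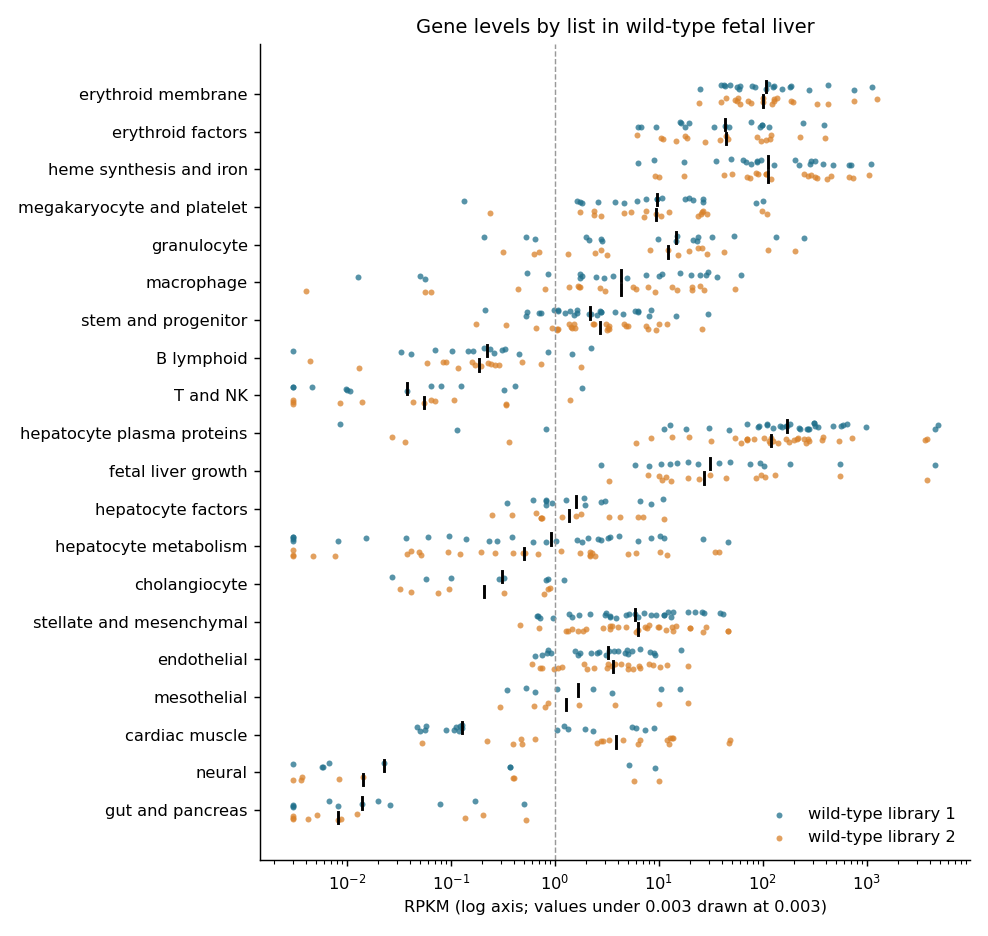
Each point is 1 gene of a list in wild-type library 1 (blue) or 2 (orange), placed by RPKM on a log axis; black ticks are list medians per library and the dashed line is RPKM 1. Erythroid membrane and plasma protein lists have medians of 100.3 or more, stellate and endothelial lists medians from 3.23 to 6.30, and B lymphoid and T and NK lists medians at or below 0.221.

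Other blood lineages had lower list medians. Of 19 megakaryocyte genes 18 were detected, with medians of 9.54 and 9.41 RPKM. The platelet chemokines Pf4 (99.3 and 109.4 RPKM) and Ppbp (86.2 and 98.5 RPKM) were highest, and the integrin chain Itga2b was at 21.4 and 26.5 RPKM. Of 17 granulocyte genes 14 were detected. The alarmin genes S100a8 (249.1 and 202.5 RPKM) and S100a9 (133 and 111 RPKM) led, ahead of the granule proteases Prtn3 (52.2 and 41.8 RPKM), Ctsg (23.5 and 19.6 RPKM) and Elane (14.7 and 15.2 RPKM). The eosinophil granule gene Prg2 was at 46.4 and 60.5 RPKM, whereas Epx, also an eosinophil gene, was at 1.93 and 3.42 RPKM and the mast cell gene Cpa3 at 4.66 and 3.89 RPKM.

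Macrophage genes were moderate, with 17 of 22 detected and medians of 4.28 and 4.32 RPKM. Lyz2 (lysozyme) was at 61.4 and 53.4 RPKM and the complement genes C1qb, C1qc and C1qa between 15.0 and 36.1 RPKM. Vcam1, an adhesion molecule of island macrophages that endothelium also expresses, was at 29.7 and 24.7 RPKM, and Hmox1, which degrades heme, at 24.7 and 20.6 RPKM. Emr1 (F4/80) was at 16.03 and 13.4 RPKM and the receptor Csf1r at 9.98 and 7.90 RPKM. The resident macrophage genes Cd163 and Vsig4 were near the floor of the table, with 4 and 2 reads and 5 and 9 reads. Of the 17 members with a mean RPKM of at least 1, 16 were higher in library 1, as were 28.0% of all 10609 genes at that level.

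Stem and progenitor genes were low: 22 of 28 were detected, with medians of 2.17 and 2.74 RPKM. Lyl1 (29.6 and 25.7 RPKM) and Cd34 (14.7 and 12.0 RPKM) led, and both are expressed in endothelium too. The fetal regulators Lin28b (8.08 and 9.98 RPKM) and Igf2bp3 (8.42 and 9.29 RPKM) were clearly present. Lymphoid genes were near the limit of detection. Of 16 B lineage genes only Cd79b reached 1 RPKM in both libraries (2.21 and 1.79 RPKM), and the recombinase gene Rag1 was at 0.308 and 0.263 RPKM. Of 13 T and NK genes only Lck did, at 1.82 and 1.41 RPKM with 32 and 50 reads on its known junctions, while Cd3g had 0 and 8 reads and Cd3d 1 and 0 reads.

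The secretory programme of the hepatoblast was the counterpart of the erythroid one. Of 35 plasma protein genes 32 were detected, with medians of 168.6 and 120.6 RPKM, and the list took 6.857% and 4.997% of summed reads. Alb (albumin) was at 4837 and 3651 RPKM and Afp (alpha-fetoprotein), its neighbour on chromosome 5, at 4556 and 3757 RPKM. The order of the 2 genes differed between the libraries. Apoa1, the main protein of high-density lipoprotein, was at 969 and 533 RPKM, Ahsg (fetuin A) at 637 and 375 RPKM and Ttr (transthyretin) at 472 and 275 RPKM. Trf (transferrin), which carries iron in plasma, was at 588 and 725 RPKM. The 3 undetected members were Fetub (0.816 and 0.365 RPKM), Hrg (0.115 and 0.0362 RPKM) and Apoa4 (1 and 5 reads).

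Hepatocyte transcription factors had far lower levels. Of 14, 8 were detected, with medians of 1.59 and 1.37 RPKM. Hnf4a, a nuclear receptor of hepatocyte identity, was highest at 10.9 and 11.2 RPKM, followed by Cebpa (8.42 and 7.03 RPKM) and Foxa3 (6.57 and 6.31 RPKM). Prox1, which acts in hepatoblast migration, was at 3.06 and 4.19 RPKM.

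Enzymes of mature liver metabolism were split. Of 30, 13 were detected, with medians of 0.914 and 0.509 RPKM. The fatty acid carrier Fabp1 was at 26.7 and 34.8 RPKM. Urea cycle genes spanned Asl (11.2 and 11.8 RPKM), Otc (6.36 and 5.98 RPKM), Arg1 (3.35 and 2.17 RPKM) and Ass1 (1.84 and 2.19 RPKM). At the other end, Cyp7a1, the rate-limiting enzyme of bile acid synthesis, was at 0.233 and 0.123 RPKM and Pck1, of gluconeogenesis, at 0.0601 and 0.0515 RPKM. G6pc, Cyp2c29 and Mup20 had no read in either library. With 3 reads taken as the most that a count of 0 allows, this says only that they were not detectable at this depth.

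All 16 oncofetal and imprinted growth genes were detected, with medians of 30.9 and 27.4 RPKM. The maternally expressed noncoding RNA H19 was at 551 and 549 RPKM, and its paternally expressed neighbour Igf2 at 180.7 and 130.03 RPKM. Gpc3 (102 and 105 RPKM), Grb10 (92.79 and 94.996 RPKM) and Mest (75.7 and 86.2 RPKM) followed, and Dlk1, a marker of hepatoblasts, was at 37.9 and 30.7 RPKM. None of the 8 bile duct genes was detected in both libraries. Spp1 came closest at 1.23 and 0.854 RPKM, and Krt19 was at 0.811 and 0.903 RPKM.

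The albumin promoter is shown as the proximal control region of the leading hepatocyte gene (RefSeq, GRCm38.p6, chr5:90460750-90460869, plus strand, 120 bases before the start), with capitals for the same motifs.
Alb: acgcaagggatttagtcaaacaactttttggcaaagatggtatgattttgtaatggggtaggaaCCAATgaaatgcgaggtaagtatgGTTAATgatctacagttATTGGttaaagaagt
It held CCAAT once on each strand and GTTAAT once. GTTAAT occurred on either strand in 32.4% of the 34 windows of 29 plasma protein genes and in 6.43% of all windows. It was in 10.5% of ribosomal protein windows, 10.3% of endothelial and stromal windows and in none of the 70 erythroid windows. TATAAA was in 20.6% of plasma protein windows, 15.4% of endothelial and stromal, 8.57% of erythroid and 5.26% of ribosomal protein windows, and 12.4% of all. Base composition differed as well, with a mean G and C content of 49.5% in plasma protein windows, 57.2% in erythroid windows and 53.2% in all.

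Stromal genes formed a broad middle range. Of 31 stellate and mesenchymal genes 27 were detected, with medians of 5.86 and 6.30 RPKM. The matrix genes Sparc (41.1 and 46.3 RPKM), Col3a1 (26.2 and 26.4 RPKM), Dcn (22.2 and 19.8 RPKM) and Col1a2 (12.3 and 11.6 RPKM) were prominent. Reln, a secreted protein of stellate cells, was at 27.0 and 28.6 RPKM, and Cxcl12, the chemokine that retains stem cells in their niche, at 11.2 and 9.997 RPKM. Vim, at 38.9 and 46.2 RPKM, is also expressed by blood cells.

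Of 24 endothelial genes 19 were detected, with medians of 3.23 and 3.64 RPKM. Lyve1, a hyaluronan receptor of liver sinusoids, led with 16.3 and 18.9 RPKM. The junction protein Cdh5 was at 9.24 and 10.3 RPKM, the VEGF receptor Kdr at 6.63 and 8.01 RPKM, and the sinusoidal scavenger receptors Stab2 and Stab1 at 5.02 and 6.52 and at 4.04 and 5.06 RPKM. Mesothelial genes, which mark the liver surface, were represented by Podxl (15.8 and 19.1 RPKM), which blood precursors also express, and by Upk3b (2.31 and 1.70 RPKM), Wt1 (0.527 and 0.630 RPKM) and Msln (0.344 and 0.293 RPKM). Markers of red cells, hepatocytes, endothelium and stroma were thus all present in both libraries.

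Genes of dividing cells were abundant. All 16 S phase and 17 G2 and M phase genes were detected, with S phase medians of 44.9 and 60.5 RPKM and G2 and M phase medians of 45.3 and 52.4 RPKM. Mki67, the proliferation antigen, was at 287 and 297 RPKM, Ccna2 at 176 and 194 RPKM and Top2a at 78.6 and 115 RPKM. Replication-dependent histones had medians of 186 and 256 RPKM, led by Hist1h1a at 2286 and 2122 RPKM. Their mRNAs lack poly(A) tails and are kept when ribosomal RNA is depleted without poly(A) selection, as in these libraries, and single histone genes can share reads with close copies.

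The libraries differed by cell type list. With 1 group of 2 libraries no test of them is possible, and they are described by the median log2 difference, library 2 minus library 1, on the scale of RPKM plus 0.1, over list members with a mean RPKM of at least 1. For plasma proteins this was -0.54, or -0.66 relative to the median of all genes, and 31 of 32 members were higher in library 1, Trf being the exception (0.30). Hepatocyte metabolism was at -0.41 (11 of 14 higher in library 1), macrophages at -0.26 (16 of 17) and granulocytes at -0.22 (9 of 14), the last being -0.34 relative to that median. Hepatocyte transcription factors were at -0.09, or -0.21 relative to that median, with 5 of 8 higher in library 1. The erythroid lists lay close to 0, at 0.03 for membrane genes, 0.09 for factors and 0.09 for heme and iron. These 3 turned to -0.09, -0.03 and -0.03 relative to the median of all genes. Endothelial genes were at 0.21 (16 of 19 higher in library 2), which became 0.09 relative to the median of all genes and 0.11 with TMM scaling. S phase genes were at 0.34 (15 of 16), or 0.22 relative to that median. Shifts of this size were not particular to these lists. Housekeeping genes were at 0.37 (7 of 9 higher in library 2), or 0.25 relative to that median. Splicing factors were at 0.21 (23 of 26), or 0.09 relative to it. Over all 10609 genes with a mean RPKM of at least 1, 72.0% were higher in library 2.

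**Figure D3:**
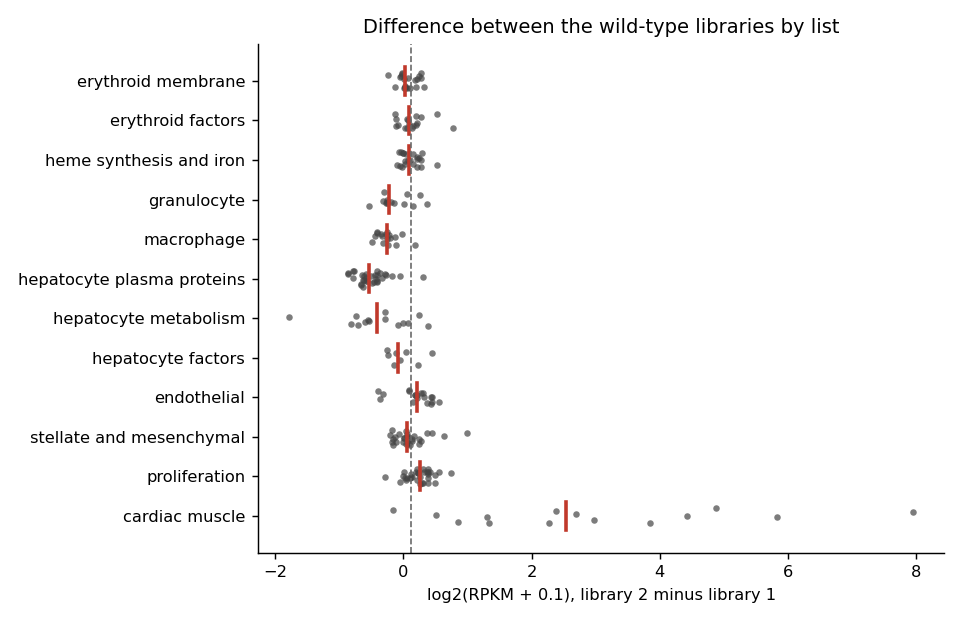
Each point is 1 gene of a list with a mean RPKM of at least 1, placed by its log2 difference in RPKM plus 0.1, library 2 minus library 1; red bars are list medians and the dashed line is the median of all genes, 0.12. Plasma protein genes lie mostly left of 0, erythroid lists sit around the dashed line, and heart muscle genes extend to 7.96.

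Heart muscle genes were much higher in library 2, and several were nearly absent from library 1. Myl2, the ventricular myosin light chain, was at 0.0902 and 47.1 RPKM from 4 and 3322 reads, a log2 difference of 7.96. Its 6 known junctions held 0 and 1640 reads. Myl3 (0.111 and 12.0 RPKM), Myh7 (0.0566 and 4.52 RPKM), the oxygen carrier Mb (0.0516 and 3.49 RPKM), Pln, a brake on the calcium pump (0.0576 and 3.28 RPKM), and Mybpc3 (0.107 and 2.89 RPKM) followed the same pattern. Eef1a2 (0.00698 and 0.852 RPKM), Ckm (0.202 and 2.54 RPKM), Actc1 (6.06 and 48.6 RPKM) and Myoz2 (0.0619 and 0.982 RPKM) completed the 10 largest differences in this direction. Of 14 heart genes with a mean RPKM of at least 1, 13 were higher in library 2, with a median of 2.54. Only 9 of the 20 heart genes listed reached 1 RPKM in both libraries, so some members passed the mean filter through library 2 alone. That count and median therefore follow in part from the filter. Without it the median over all 20 was 1.85.

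The atrial and skeletal light chains showed smaller differences. Myl7, the atrial light chain, was at 7.29 and 6.50 RPKM, and Myl4, the atrial and fetal light chain that is also expressed in erythroid cells, at 8.98 and 12.7 RPKM. The fast skeletal chain Mylpf was at 8.70 in both libraries, with 89 and 209 junction reads, and the skeletal regulators Myod1, Myog and Myf5 were at or below 0.128 RPKM. Summed over the 20 heart genes, RPKM was 36.7 in library 1 and 191 in library 2, 0.00871% and 0.0523% of reads. Neural genes were near 0 except for Gfap (9.14 and 9.97 RPKM) and Mbp (5.12 and 5.74 RPKM), and none of 11 gut and pancreas genes was detected. The part of heart tissue in other differences between the libraries was not tested.

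Among the 10 largest differences in the other direction, Samd7, a retinal gene, had 501 and 14 reads but no read on any of its 8 known junctions in either library. Sik2, a kinase, had 5269 and 1867 reads, yet its known junctions held 146 and 280 reads, more in library 2. For these 2 genes the difference in row reads was therefore not seen in spliced reads. Slc10a1, the bile acid importer of hepatocytes, was at 1.61 and 0.397 RPKM with 19 and 7 junction reads. The basophil gene Mcpt8 (2.74 and 0.857 RPKM) and the pre-B gene Vpreb3 (1.47 and 0.477 RPKM) were also in this set, with Sva, Ctnna2, Ifit1, Krt14 and Acsm1. Among the 10609 genes with a mean RPKM of at least 1, 83 (0.782%) differed by more than 1 on the log2 scale. Of these, 61 were higher in library 2 and 22 in library 1. The 10 largest differences in each direction were drawn by a minimum of reads in the higher library instead. Those with a mean RPKM below 1, such as Sva and Eef1a2, are therefore not among the 83.

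Splicing was read from 1921627 junctions that both libraries list, 186874 marked known and 1734753 marked putative. Reads on known junctions numbered 4875332 and 8624429. Of the known junctions, 53.1% had a read in both libraries, 82.7% of those in detected genes and 9.32% of those in other genes. The genes with most known-junction reads were the globins Hba-a1, Beta-s and Hbb-b2, then Alb, Afp, Slc4a1, Alas2, Eef1a1, Rpl4 and Trf. Alb junctions held 177899 and 215778 reads and Slc4a1 junctions 50181 and 100131 reads, so Alb exceeded Slc4a1 in both libraries.

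For some abundant genes the junction reads and the row reads were far apart. Gapdh, a glycolytic enzyme in every cell, was listed at 6 and 30 reads (0.0696 and 0.219 RPKM), while its 6 known junctions held a mean of 388 and 762 reads each. Rpl23a, a protein of the large ribosomal subunit, had 9 and 12 row reads against 595 and 1120.5 reads per junction. To see how common this was, reads per known junction were divided by reads per base of the row in 2509 genes with at least 2 known junctions and at least 100 reads per junction over both libraries. The median of this ratio was 39.5 and 40.8. In 146 genes (5.82%) it was at least 4 times the median in both libraries.

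Ribosomal protein genes made up a large part of that set, with 49 of 77 (63.6%) at least 4 times the median against 97 of 2432 other genes (3.99%). Others, named after their values were seen, were Actg1, Hmgb1, Ncoa4 and Ppia, at 6.63 times the median or more, and the alpha-globin row Hba-a1, at 19.95 and 19.7 times. Many of these genes have processed pseudogenes, near-identical copies that can share reads, and the part of these copies was not tested. Row RPKM of such genes is therefore uncertain. The ribosomal protein list had medians of 73.2 and 80.0 RPKM, with members from 0.261 to 984 RPKM. Alb (0.949 and 0.929 times the median), Slc4a1 (0.863 and 0.923) and Alas2 (1.57 and 1.36) lay closer to the median. Gas5, which hosts small nucleolar RNAs in its introns, was at 0.145 and 0.112 times the median. Klf1 (0.301 and 0.312 times) and Igf2 (0.306 and 0.294 times) also lay well below the median, so their levels by row RPKM are uncertain too.

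**Figure D4:**
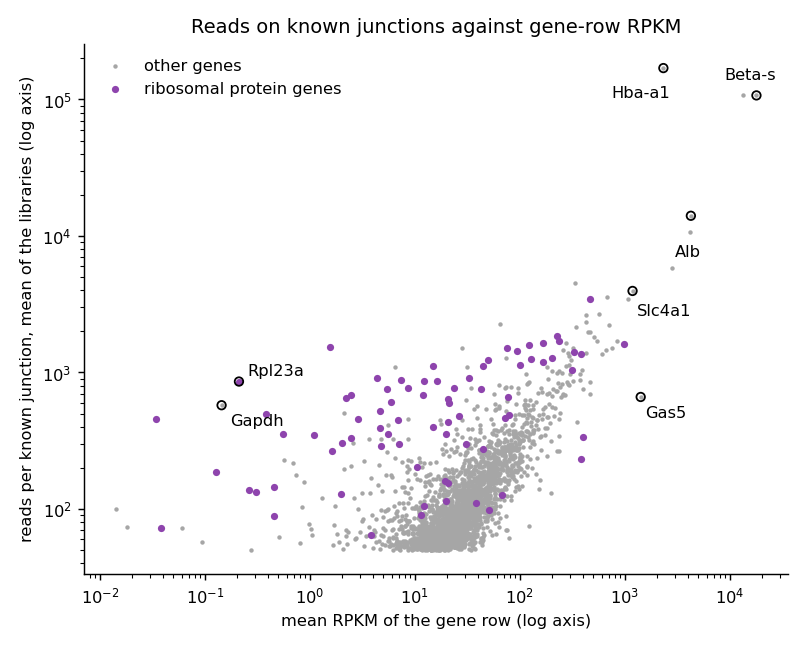
Mean reads per known junction (y, log axis) against mean RPKM of the gene row (x, log axis) for genes with at least 100 reads per junction over both libraries; purple points are ribosomal protein genes and grey points other genes. Most genes follow a rising band, while Gapdh and Rpl23a lie far to its left, each below 0.23 RPKM in both libraries.

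Putative junctions, which join annotated exons in ways the table does not know, carried 3.03% and 0.725% of junction reads. Nearly all of the excess in library 1 lay on 3 junctions of the Speer genes, a rodent family of testis genes with many copies, which held 111693 reads in library 1 and 10 in library 2. Without them the share was 0.822% and 0.725%. In all 38771 putative junctions had a read, 30511 of them (78.7%) exactly 1. At the other end, 692 had at least 5 reads in both libraries, in 578 genes. For 683 of these the gene was matched in GENCODE M21, and 341 (49.9%) had the exact length of an intron annotated in that gene, against 0.224% of unread putative junctions of the same genes and 1.85% of those read once. A shared length does not show that the intron is the same. Known junctions with at least 5 reads in both libraries matched in 99.8%.

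Among the putative junctions with most reads, that of Drosha, the nuclear microRNA-processing enzyme, held 5344 and 4115 reads, while all 35 known junctions of the gene held 397 and 771, and no annotated intron had its length. Those of Cd47 (463 and 1088 reads), the "do not eat me" signal on red cells, Epb4.1 (473 and 726 reads) and Picalm (284 and 547 reads), a clathrin adaptor needed for transferrin uptake, did match annotated lengths. Beside the 3 Speer junctions, the others of the first 10 were in Rrm1 (147 and 314 reads), Faf1 (185 and 240) and Tmem14c (162 and 206), and matched no annotated length. The Cd47 junction skips an exon of 63 bases, which was included at 21.1% and 16.6%.

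Exon skipping was uncommon at this depth over all exons for which a skipping junction was listed. A cassette exon was taken as an exon of at most 1000 bases with known junctions on both sides and a listed junction that skips it. Its inclusion is the mean of the 2 inclusion junctions divided by that mean plus the skipping reads. With at least 20 such reads in each library there were 34832 events in 6007 genes. In 97.7% of them inclusion was above 90% in both libraries, and 88.4% had no skipping read at all. Inclusion lay between 10% and 90% in both libraries in 320 events (0.919%) of 297 genes and below 10% in 106. These shares describe mainly exons not annotated as skipped, since in 34490 events the skipping junction was marked putative. Of the 342 events whose skipping junction was marked known, 141 lay between 10% and 90% in both libraries. Another 79 lay below 10% and only 76 above 90% in both. Exon length was a multiple of 3, which keeps the reading frame, for 58.7% of the exons in the middle range, 73.6% of those mostly skipped and 38.3% of those mostly included. The median difference between libraries in the middle range was 7.55 percentage points, and 4.64 for the 57 events with at least 100 reads in each.

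The exons below belong to 6 genes and are shown because inclusion was intermediate or, in Picalm, the exon was mostly skipped. Sequences were read from GENCODE M21 transcripts (GRCm38) after matching gene, exon length and both flanking intron lengths, which succeeded for 52 of 58 exons searched. Each is the whole coding exon, 5′ to 3′ on the transcript strand, in lower case throughout.
Epb4.1: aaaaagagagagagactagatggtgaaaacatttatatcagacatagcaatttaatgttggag
Ptbp1: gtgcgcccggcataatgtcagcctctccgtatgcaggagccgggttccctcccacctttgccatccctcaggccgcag
Hnrnpab: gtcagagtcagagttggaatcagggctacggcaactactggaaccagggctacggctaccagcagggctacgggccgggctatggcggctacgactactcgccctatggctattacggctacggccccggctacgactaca
Ubtf: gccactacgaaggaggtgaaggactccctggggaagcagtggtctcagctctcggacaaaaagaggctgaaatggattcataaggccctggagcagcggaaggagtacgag
Aplp2: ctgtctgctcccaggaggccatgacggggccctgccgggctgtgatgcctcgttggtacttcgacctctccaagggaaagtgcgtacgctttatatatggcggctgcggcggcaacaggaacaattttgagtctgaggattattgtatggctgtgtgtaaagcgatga
Picalm: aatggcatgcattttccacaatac
Their positions are chr4:131962924-131962986 (minus strand) for Epb4.1, chr10:79860117-79860194 (plus) for Ptbp1, chr11:51601750-51601890 (minus) for Hnrnpab, chr11:102310926-102311036 (minus) for Ubtf, chr9:31167561-31167728 (minus) for Aplp2 and chr7:90194273-90194296 (plus) for Picalm. Their lengths of 63, 78, 141, 111, 168 and 24 bases are all multiples of 3.

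The Epb4.1 exon lies in the domain that binds spectrin and actin and is known for joining the mRNA late in red cell maturation. It was joined upstream by 473 and 726 reads, on a junction the table marks putative, and downstream by 93 and 251 reads, and was skipped by 171 and 393 reads. Inclusion was 62.3% (95% Wilson interval 57.8 to 66.7) and 55.4% (52.1 to 58.7). From the weaker inclusion junction alone it would be 35.2% and 39.0%. Intervals here cover counting error only, and reads were amplified without molecular identifiers.

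Several of the 12 events nearest 50% inclusion with at least 100 reads in each library were in genes of RNA-binding proteins. The share of such genes among all events was not counted, so no excess is claimed. The Ptbp1 exon, in a linker between RNA-binding domains of this repressor of exon inclusion, was included at 58.9% (51.8 to 65.7) and 44.8% (39.6 to 50.1). From its weaker junction the values were 45.8% and 34.04%. The Hnrnpab exon, in the glycine-rich tail that separates the 2 forms of this hnRNP, was included at 44.8% (41.2 to 48.5) and 49.4% (46.3 to 52.5), and its weaker junction gave 40.5% and 46.8%. An exon of 147 bases in Hnrnpd, a related hnRNP, gave 62.3% and 64.3%, and 40.4% and 62.9% from its weaker junction. Pcbp2, a poly(C)-binding protein, gave 40.3% and 37.8%, and 24.8% and 29.8% from its weaker junction. The Ubtf exon, which separates the 2 forms of the RNA polymerase I factor UBF, was included at 63.1% and 52.4%, and the Kunitz inhibitor exon of Aplp2 at 59.6% and 68.6%.

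The other 6 of these 12 were Gpbp1, Syce2, Rab3il1, Cdk2, Puf60 and Arrb1. Syce2, a meiotic gene, gave 58.9% and 53.3% and barely moved with the weaker junction (58.5% and 53.1%). In Gpbp1, by contrast, 1 of the 2 inclusion junctions was almost unread, so that 54.9% and 49.6% became 0% and 1.45%. In Arrb1 35.6% and 31.7% became 6.61% and 11.3%. The weaker junction also gave 23.0% and 38.03% in place of 57.8% and 62.5% in Rab3il1, 15.7% and 36.5% in place of 28.4% and 39.0% in Puf60, and 21.7% and 34.5% in place of 32.9% and 41.2% in Cdk2. In these 5 genes, and in Hnrnpd and Pcbp2, the value in at least 1 library moved by more than 1.5 times with the junction read.

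**Figure D5:**
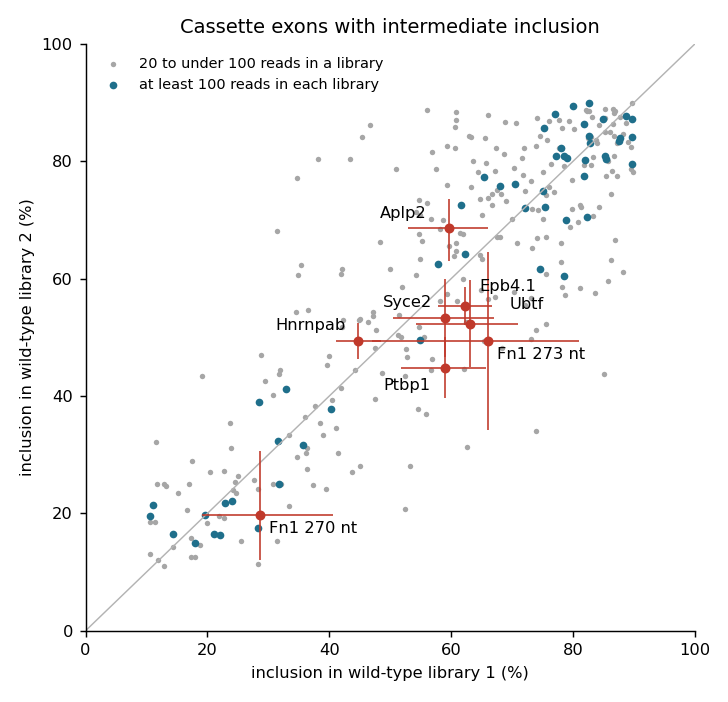
Inclusion in library 1 (x) against library 2 (y), in percent, for 320 cassette exons between 10% and 90% in both libraries; blue points have at least 100 reads in each library, grey points fewer, and red points with 95% Wilson intervals are named exons, Epb4.1 among them with 1 putative inclusion junction. Points scatter around the diagonal, the blue ones more closely than the grey ones.

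Of 48 genes listed for known alternative splicing, 36 held an event with enough reads and 13 an event with a mean inclusion below 97%. Picalm skipped its exon of 24 bases in most reads, with 6.89% and 8.07% inclusion (0.351% and 6.01% by the weaker junction), and included an exon of 150 bases at 75.5% and 72.1%. Add1 (adducin), of the membrane skeleton, included its exon of 37 bases at 78.5% (69.8 to 85.2) and 60.5% (54.5 to 66.1), intervals that do not overlap. Mbnl1, a muscleblind splicing regulator, included its exon of 36 bases at 75.2% and 85.7%, or 22.7% and 53.5% by the weaker junction. The poison exons of Srsf3 and Srsf7, which bring a stop codon that leads to decay, were included at 12.2% and 5% and at 1.95% and 3.11%.

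Fibronectin, Fn1, carried both of its extra domains in part of its reads. The exon of 270 bases (extra domain A) was included at 28.7% (19.1 to 40.7) and 19.7% (12.0 to 30.6), or 9.80% and 5.17% by the weaker junction. That of 273 bases (extra domain B) was included at 66.0% (47.0 to 81.0) and 49.3% (34.2 to 64.6), or 65.4% and 40.6% by the weaker junction. Ikzf1, the lymphoid and erythroid regulator Ikaros, included its exon of 261 bases at 71.7% and 77.7%, or 48% and 55.6% by the weaker junction. Its exon of 123 bases was included at 77.0% and 88.1%, or 73.0% and 87.9% by the weaker junction. H2afy (macroH2A1) joined 1 of its alternative exons to the next exon with 74 and 115 reads and the other with 2 and 2 reads. Ank1 (erythroid ankyrin) skipped an exon of 24 bases with 78 and 176 reads against 0 and 1 reads on the inclusion junctions. Ctnnd1 (p120 catenin) skipped its exon of 18 bases with 25 and 37 reads and included that of 63 bases at 65.4% and 49.5%.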

How the data were processed

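Total RNA of fetal liver cells from 2 wild-type mouse samples was depleted of ribosomal RNA, fragmented and sequenced, per the labels' protocols. Read counts per RefSeq transcript were made by the authors by a script of theirs from primary alignments, with mapping quality 10 as the minimum, a minimum score of 0 and a score clear zone of 5, per the file headers. RPKM was deposited by the authors beside the counts, and so was coverage as reads per base. Dividing the counts by length and mapped reads gave every deposited RPKM back. A second deposited file per library gives the read count on each junction, marked known or putative. For the aligner, the build and the junction rules, nothing was stated.

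Copies of a row were merged by gene and the transcript with most reads over both libraries was kept. Levels were log2-transformed after adding a pseudocount of 0.1. Gene names of 541 of 550 list entries in 29 lists were found. With 1 group of 2 libraries no comparison between conditions was tested, and the spread was estimated with edgeR 4.0.16 in R 4.3.3 (DESeq2 1.42.0 size factors as an alternative). Tables were handled with Python 3.11.15, pandas 2.3.3 and numpy 2.4.6. Inclusion estimates were tested on simulated data. The simulation drew both inclusion junctions of an exon at the same level, so it does not cover the unequal junctions seen here. Wilson intervals at 95% cover counting error only, and mapped reads were 70020061 and 111324295. Named genes are the 30 highest rows, leading and lowest members of each list, the 10 largest differences in each direction, listed splicing genes, the 12 exons nearest 50% inclusion, the 10 putative junctions and the 10 genes with most junction reads. Other genes of the junction comparison, single list members and Hnrnpl, Xist and Y-linked genes were named outside that rule. Members and lists were chosen with earlier results of these data known. Alternatives were another transcript per gene, TPM, other pseudocounts, filters and read minimums, and leaving out 1 library.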

Additional observations from a re-analysis of the deposited data

How the results depend on the processing

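No paired analysis was possible because there is 1 group of 2 libraries. Both are total RNA of mixed cells, and depth limits junction values in genes of low level. The numbers of detected genes, the share of known junctions with reads and the common variation moved by less than 1.5 times under the alternatives run. The mean share of reads on putative junctions, 1.88%, stayed within 1 SD (1.63), but the libraries themselves differed, at 3.03% and 0.725%. Leaving out 1 of 2 libraries always stays within 1 SD, so this is no sign of stability. Chosen after seeing the data, that share was 0.773% without the 3 Speer junctions. The 10 genes with most reads held 12.4% of reads, the 10 of highest RPKM 30.5% of summed RPKM and, chosen after seeing the data, 7.04% of reads. TPM moved the medians of the cardiac list from 2.01 RPKM to 5.36 TPM, endothelial to 9.41, erythroid membrane to 286.2, plasma protein to 398.8 and stellate to 16.7. The cardiac log2 difference of 2.54 became 1.91 with a pseudocount of 1 and 1.85 without a filter. Differences near 0 changed sign with TMM scaling and relative to the median of all genes, in that order: erythroid membrane -0.073 and -0.089, stellate -0.047 and -0.063, erythroid factors -0.017 and -0.034, fetal growth -0.087 and -0.103, heme and iron -0.018 and -0.034, histones -0.082 and -0.098, and mesothelial -0.059 and -0.077. Small and structural RNA became -0.0089 relative to that median, and the mast cell, basophil and eosinophil list -0.43 without a filter. Chosen after seeing the data, the embryonic beta share of 9.03% became 6.71% with all 3 adult rows, 2.62% by known-junction reads against both adult loci and 5.09% against 1. The alpha share of 4.27% became 2.19% with both adult rows, which count the same reads, 0.12% by known-junction reads against 1 adult copy and 0.0602% against both. By raw reads the alpha share was 4.56%. The 320 exons of intermediate inclusion became 510 with a minimum of 10 reads, 115 with 50, and 564 to 802 with 1 library left out, which needs only 1 library to pass. The cause of the other changes was not tested.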

Other observations

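Splicing factors were expressed at levels from below 1 to above 100 RPKM. Of 28 listed, 26 were detected in both libraries, with medians of 22.9 and 29.0 RPKM. Srsf2, a serine and arginine-rich factor, was at 119.5 and 135.3 RPKM and Hnrnpu at 107.6 and 138.7 RPKM. Ptbp1 was at 28.08 and 32.005 RPKM against 3.74 and 3.63 RPKM for its neural relative Ptbp2. Hnrpll, the closest relative of hnRNP L, was at 13.01 and 16.7 RPKM. The neural factor Nova1 (0.0959 and 0.0552 RPKM) and the epithelial factor Esrp1 were the 2 not detected.

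Nuclear noncoding RNAs were also captured. Malat1 was at 203.8 and 192.1 RPKM, Terc, the RNA of telomerase, at 24.7 and 42.8 RPKM, and the minor spliceosome RNAs Rnu11 and Rnu12 at 15.2 and 22.4 and at 19.6 and 13.4 RPKM.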
